A study of Homo sapiens with 8 samples.

Results

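The lines compared here are 2 sublines of the kidney cancer cell line A-498, an established human line, which are both labelled as wild type controls. Control line 1 (control 1 below) carried non-targeting sgRNA-1 and control line 2 (control 2) carried non-targeting sgRNA-2. The members were chosen by the column labels: the 4 libraries of the control lines, 2 replicates each, of 8 libraries in all, and the 13579 of 28395 genes that had a normalized read count of 10 or more in at least 2 of these 4 libraries. The other 4 libraries came from 2 further A-498 lines, labelled ANXA4 KO-1 and ANXA4 KO-2 (knockout of the annexin A4 gene), and are used here for the spread between replicates and as a further view of each gene's level. All lines were grown for 1 day in RPMI 1640 medium with serum and antibiotics, and polyadenylated RNA was sequenced. Each guide was represented by 1 line, so that guide and line cannot be told apart, and whether a line was a clone or a pool of cells is not given in the sources used here. The sources do not state separate cultures for the replicates either, so p-values measure only the spread between these libraries, which may be technical.

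A non-targeting guide RNA is designed to match no site in the genome, and a line that carries it is the usual reference for a knockout line made the same way. Lines derived from 1 cancer cell line are known to differ among themselves in gene expression, in chromosome content and in epigenetic state. The question of this comparison was by how much, and in which genes, the reference lines differed from each other.

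The libraries of control 1 held 18819344 and 17610801 reads, and those of control 2 held 20562734 and 16504991, with 13290 to 13616 genes at 10 reads or more. Replicates of either control line had a Pearson correlation of 0.983 to 0.987 over log2 values (across genes, which are not independent replicates), and libraries of different control lines one of 0.968 to 0.976. ANXA4, the targeted gene of the study, was at a normalized read count of 2821 and 3614 in control 1 and 3858 and 6773 in control 2. It was at 236 and 234 in the line labelled KO-1 and at 3433 and 4142 in the line labelled KO-2, so that the second label was not borne out by the transcript level. Between the control lines ANXA4 differed by 0.68 on the log2 scale (SE 0.249, limma adjusted p 0.218), and the limma adjusted p was 0.0144 with the replicate block. Of 13 tested kidney markers, 0 were called, or 1 with the replicate block, and 6 had no overlap between the control lines. Of all tested genes, 2.21% were called, or 12.9% with the block, and 44% had no overlap. PAX8, the renal lineage factor, was at 3247 and 4054 in control 1 and at 2987 and 3858 in control 2. Among the tested kidney markers, CUBN, of the proximal tubule, differed by -0.68 and CA9 by -0.58 on the log2 scale, and neither was called. The proximal tubule transporters SLC22A6 and SLC22A8 and the distal marker UMOD were at 0 in all 4 control libraries, the only 3 of 18 kidney markers that were. Of the other cell types a culture could hold, T cell (CD3D, CD3E), B cell (MS4A1), endothelial (CDH5) and fibroblast (DCN, LUM) markers were also at 0 there. Other members of these lists had reads: of 12 leukocyte, 8 endothelial and 10 fibroblast and pericyte markers, 3, 2 and 2 were at 0 in all control libraries. The leukocyte list summed to 4310 and 3872 in control 1 and 1828 and 3277 in control 2, nearly all of it CD68, a lysosomal protein, and the endothelial list to 48.7 and 80.1 and to 30.1 and 57.8.

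Of the 13579 genes tested, 300 differed between the control lines (2.21%; limma adjusted p under 0.05, called below), 147 higher (1.08%) and 153 lower (1.13%) in control 2. The largest rise was in the myosin light chain gene MYL9 and the largest fall in MYEOV, and the matrix genes FN1 and POSTN were among the falls. Of the 300, 194 differed at least 2-fold, 93 at least 4-fold and 21 at least 16-fold. The median size of the difference between line means was 1.25 on the log2 scale for the called genes and 0.20 for all tested genes. Between single libraries of the 2 control lines, the median size over all tested genes was 0.21 within replicate 1 and 0.25 within replicate 2. Between replicates it was 0.19 in control 1 and 0.25 in control 2. Protein-coding genes made up 285 of the 300, and 9 were long non-coding RNAs. The libraries of the control lines did not overlap in any of the 300, and 5976 of all genes tested also had no overlap (44%). The replicate numbers were paired across lines by the limit given below, and the fit that called the 300 leaves this pairing out. A replicate block, which uses it, gave 1748 called genes (12.9%), among them all 300. Single libraries moved the count: it was 43 and 51 without replicate 1 or 2 of control 1, 89 and 60 without replicate 1 or 2 of control 2, and 105 and 104 without replicate 1 or 2 of the line labelled KO-1. The fit to the 4 control libraries alone, with fewer degrees of freedom, called 154.

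**Figure D1:**
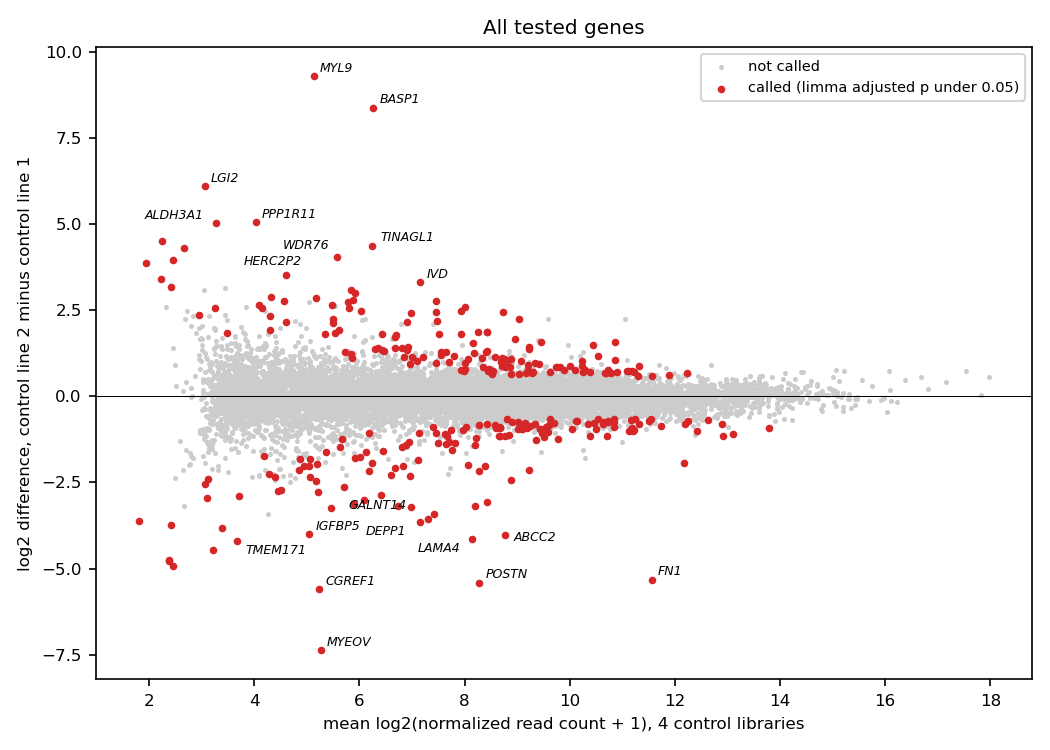
Log2 difference (control 2 minus control 1) against the mean log2(normalized read count + 1) of the 4 control libraries, 1 point per tested gene, called genes in red and 19 of the largest differences labelled. MYL9 and BASP1 lie highest, at 9.32 and 8.39, and MYEOV lowest, at -7.38.

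Promoter windows are given for BASP1, CGREF1, FN1 and POSTN, which are among the largest differences, include a rise and 3 falls, and differ in CpG content. Each window runs from 250 bases before to 50 bases after the annotated start (RefSeq, GRCh38.p14), 5′ to 3′ on the strand of the gene, and capitals mark the dinucleotide CG, the site of DNA methylation. CG reads the same on both strands, and 99.5% of the windows of tested genes hold at least 1. The window of BASP1 lies at chr5:17216573-17216872 (plus strand), that of CGREF1 at chr2:27119079-27119378, that of FN1 at chr2:215436019-215436318 and that of POSTN at chr13:37598719-37599018 (minus strand for these 3).
BASP1: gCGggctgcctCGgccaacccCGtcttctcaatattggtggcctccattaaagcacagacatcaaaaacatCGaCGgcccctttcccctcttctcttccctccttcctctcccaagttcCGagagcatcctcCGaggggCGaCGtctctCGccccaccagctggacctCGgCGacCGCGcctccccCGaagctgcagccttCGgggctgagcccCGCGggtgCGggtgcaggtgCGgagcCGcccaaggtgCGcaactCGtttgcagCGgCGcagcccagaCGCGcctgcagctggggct
CGREF1: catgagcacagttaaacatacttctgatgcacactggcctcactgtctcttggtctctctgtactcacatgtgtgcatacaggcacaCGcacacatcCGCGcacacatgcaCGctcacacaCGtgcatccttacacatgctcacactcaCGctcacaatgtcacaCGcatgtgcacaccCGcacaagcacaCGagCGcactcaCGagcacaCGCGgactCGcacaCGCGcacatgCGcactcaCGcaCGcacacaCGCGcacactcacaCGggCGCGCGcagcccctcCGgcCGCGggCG
FN1: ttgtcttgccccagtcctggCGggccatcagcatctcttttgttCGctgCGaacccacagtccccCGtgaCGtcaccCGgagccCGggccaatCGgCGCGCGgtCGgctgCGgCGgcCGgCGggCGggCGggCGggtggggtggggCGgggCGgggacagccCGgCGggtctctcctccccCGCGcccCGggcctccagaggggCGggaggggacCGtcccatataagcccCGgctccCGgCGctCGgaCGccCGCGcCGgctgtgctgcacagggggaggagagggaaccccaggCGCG
POSTN: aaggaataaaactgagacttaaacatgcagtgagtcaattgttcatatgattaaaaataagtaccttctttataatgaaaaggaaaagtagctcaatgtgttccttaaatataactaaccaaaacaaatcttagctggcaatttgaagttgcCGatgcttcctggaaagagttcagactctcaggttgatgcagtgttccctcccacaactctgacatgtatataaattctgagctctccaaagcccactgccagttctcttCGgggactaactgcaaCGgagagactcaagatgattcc
The FN1 window held 38 CG sites, more than 82.7% of the 10723 tested genes with a window, and the POSTN window held 3, more than 3.07% of them. BASP1 had 27 sites and CGREF1 29. The lowest number among the named genes with a window was 1, in ABCC2. Both CpG-rich and CpG-poor windows thus stood before genes that fell in control 2. A window was found for 14 of the 20 genes with the largest differences and for 79.0% of the tested genes, fewer than 80%, so that a comparison of CpG content between the sets is void and was not made. DNA methylation was not measured.

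The largest rise was that of MYL9 (Entrez gene 10398, chromosome 20), the regulatory light chain of myosin II, which sets contractility when phosphorylated. Its normalized read counts were 0.919 and 0 in control 1, from 1 read and 0 reads, and 862 and 903 in control 2. The gene was thus at the floor of detection (3 reads or fewer in each library) in 1 control line and at 883 ± 28.9 (SD, n = 2) in the other, at least 300.3-fold higher against a floor of 3 reads per library (log2 difference 9.32, SE 0.336, limma adjusted p 3.58e-06). In the lines labelled KO it was at 146 and 241 (KO-1) and at 1251 and 1434 (KO-2), so that control 1 alone lacked the transcript. In RNA from many cells, fewer cells with a transcript and less RNA per cell cannot be told apart.

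BASP1 (Entrez gene 10409, chromosome 5) encodes a membrane-bound phosphoprotein first described in nerve terminals. It was at 1.84 and 5.20 in control 1 and at 1504 and 1313 in control 2, a 400.2-fold higher mean (log2 difference 8.39, SE 0.311, limma adjusted p 3.58e-06). The lines labelled KO-1 (1219.7 and 1159) and KO-2 (1084 and 1159) were at the level of control 2, and control 1 stood apart from all 3 other lines.

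MYEOV (Entrez gene 26579, chromosome 11), named for its overexpression in myeloma, showed the opposite pattern. Its counts were 477 and 513 in control 1 and 1.72 and 2.27 in control 2, from 2 reads in each library, and at least 166-fold lower (log2 difference -7.38, SE 0.237, limma adjusted p 2.12e-06). Here control 2 stood apart, as both lines labelled KO expressed the gene, at 702 and 753 (KO-1) and at 696 and 448 (KO-2). CGREF1 (Entrez gene 10669, chromosome 2), a secreted EF-hand protein linked to growth control, was at 247 and 279 in control 1 and at 4.30 and 4.53 in control 2 (log2 difference -5.60, SE 0.249, limma adjusted p 1.35e-05). The lines labelled KO lay between these levels, at 51.7 to 91.3.

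**Figure D2:**
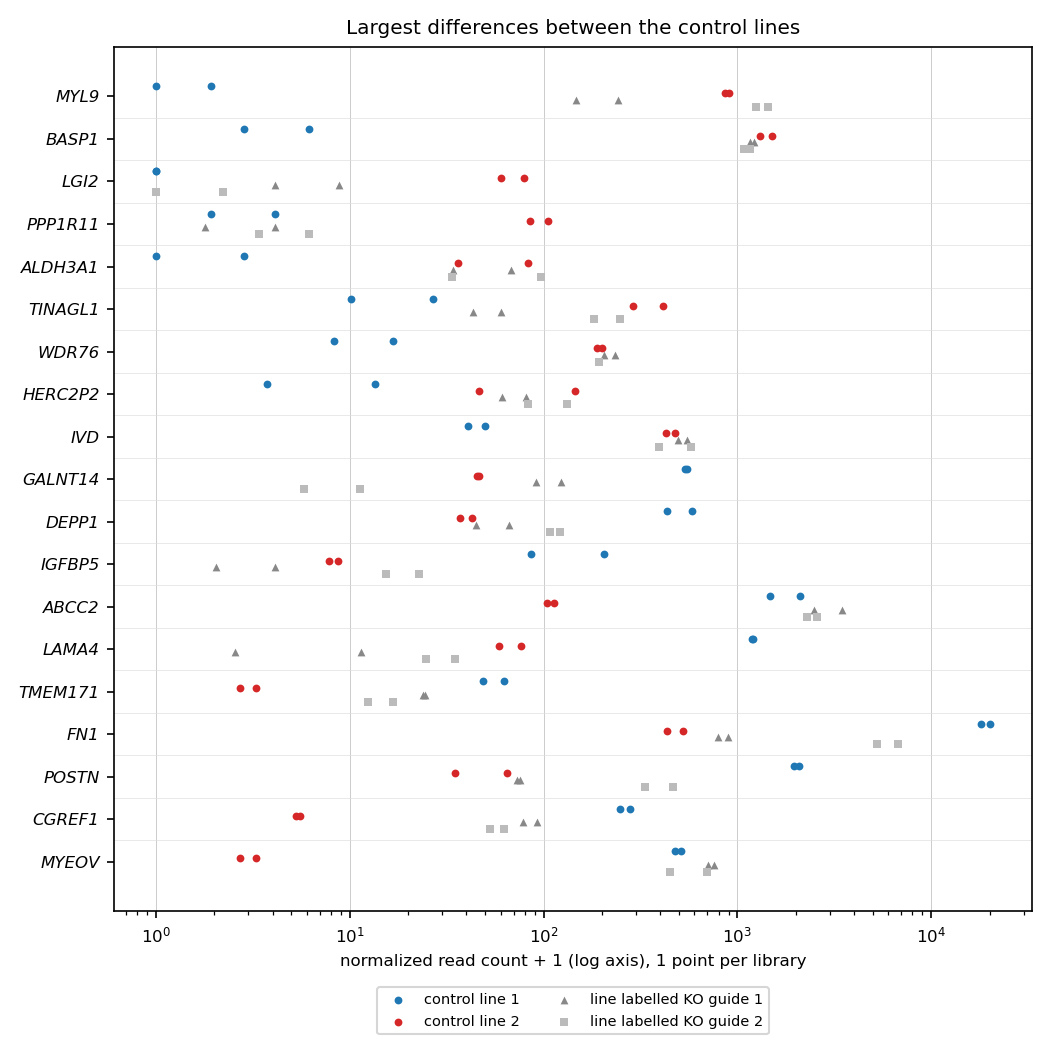
Normalized read count + 1 (log axis) in each of the 8 libraries for 19 of the 20 genes with the largest differences between the control lines (line mean of 50 or more), 1 point per library, ordered by the difference. The blue and red points (controls 1 and 2) do not overlap, as the choice of genes required, and the grey points of the lines labelled KO lie nearer to either control line, depending on the gene.

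Among called genes with a line mean of 50 or more in a control line, the 10 largest rises and 10 largest falls were taken. Of the rises, 4 genes were at the floor in control 1 and at a line mean of 50 or more in control 2. Besides MYL9 these were LGI2, PPP1R11 and ALDH3A1. LGI2, a secreted leucine-rich repeat protein, had 0 reads in both libraries of control 1 and was at 59.4 and 78.2 in control 2 (at least 23.4-fold higher, limma adjusted p 0.00336). It was at 7.83 or below in the 4 libraries labelled KO, so that control 2 alone expressed it at this level. ALDH3A1, an aldehyde dehydrogenase, was at 1.84 and 0 in control 1 and at 82.6 and 35.1 in control 2 (at least 20.0-fold higher, adjusted p 0.0123), with 32.6 to 96.2 in the libraries labelled KO. PPP1R11, an inhibitor of protein phosphatase 1, went from 0.919 and 3.12 to 105 and 83.8 (adjusted p 0.00835). It lies in the major histocompatibility region, of which the reference holds alternate copies, and overlaps POLR1H and RNF39, so that its count is uncertain.

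The other rises were in genes with more than 3 reads in at least 1 library of control 1. For BASP1 (2 and 5 reads) and HERC2P2 (3 and 12 reads) this held in only 1 library. TINAGL1, a matrix protein of basement membranes, was at 9.19 and 26.0 in control 1 and at 410.4 and 289 in control 2 (log2 difference 4.38). IVD, the isovaleryl-CoA dehydrogenase of leucine breakdown, was at 48.7 and 39.5 and at 476 and 428 (3.33), and WDR76, a WD40 repeat protein, at 15.6 and 7.28 and at 188 and 198 (4.05). Both lie on chromosome 15, and for both the lines labelled KO were at the level of control 2. The pseudogene HERC2P2 of that chromosome also rose (3.53), but near-identical copies of HERC2 make its count uncertain.

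After MYEOV and CGREF1, the largest named falls were those of POSTN and FN1, which encode secreted matrix proteins. POSTN (periostin, chromosome 13) was at 2073 and 1969 in control 1 and at 63.7 and 34.0 in control 2 (log2 difference -5.41, SE 0.286, limma adjusted p 4.35e-05). FN1 (fibronectin, chromosome 2), which links cells through integrins to the matrix, was at 17998 and 20159 in control 1 and at 521 and 434 in control 2, a mean 39.9-fold lower (log2 difference -5.32, SE 0.165, limma adjusted p 2.12e-06). The 4 lines formed separate levels for FN1, with 794 and 896 in the line labelled KO-1 and 6744 and 5270.4 in the line labelled KO-2. LAMA4, the laminin alpha 4 chain, was at 1185 and 1203 and at 57.6 and 75.9 (-4.15), and at 1.57 to 33.8 in the libraries labelled KO, so that control 1 alone was high. IGFBP5, which binds insulin-like growth factors, was at 203 and 85.3 and at 7.74 and 6.80 (-4.01).

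ABCC2, which exports conjugated compounds across the apical membrane of the proximal tubule, was at 2092 and 1477 in control 1 and at 103 and 112 in control 2 (-4.02). With 2295 to 3469.6 in the libraries labelled KO, ABCC2 resembled MYEOV in that control 2 alone was low. TMEM171, a membrane protein, was at 47.8 and 61.4 in control 1 and at 1.72 and 2.27 in control 2, at least 18.3-fold lower. DEPP1, a stress-induced regulator of autophagy, fell by 3.65 and GALNT14, which starts mucin-type O-glycosylation, fell by 3.56 on the log2 scale. Of the 20 genes, LAMA4 lost its call without any 1 of the 4 control libraries, and PPP1R11, HERC2P2, IGFBP5 and ALDH3A1 each without at least 1 of them. HERC2P2 also lost it without either library of the line labelled KO-1 and in the fit to the 4 control libraries alone. The other 15 were called in every alternative in which they were tested. Strand use in counting is not given in the sources used here, so reads of a gene and of one that overlaps it cannot be told apart, as for MYL9 (DLGAP4-AS1), BASP1 (BASP1-AS1), CGREF1 (KHK), FN1 (FN1-DT), LAMA4 (LAMA4-AS1) and DEPP1 (RASSF4).

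Over all called genes, the mean of either line labelled KO was more often nearer to control 2 than to control 1. Of the 147 genes higher in control 2, the mean of the line labelled KO-1 was nearer to control 2 in 115 and that of the line labelled KO-2 in 111. Of the 153 genes lower in control 2, the numbers were 109 and 102. Among these, the means of KO-1 and KO-2 lay beyond control 2 in 70 and 66 of the higher genes and in 46 and 52 of the lower genes. Genes in which control 1 alone stood apart were not counted, nor was the nearer control line over all tested genes. The genes whose levels over the 4 lines were nearest to those of MYL9 were BASP1, ALDH3A1 and CCL28, a chemokine. The measure was the sum of the absolute differences of the centred log2 line means (3.84, 6.87 and 8.02). The likeness was partial: the means in the lines labelled KO-1 and KO-2 were 194 and 1343 for MYL9 but 1189 and 1121 for BASP1. Those nearest to MYEOV were ABCC2, CGREF1 and TMEM171 (4.80, 6.33 and 7.03).

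Genes next to the 4 leading genes were examined in the order of the annotation, 3 tested genes on each side. Around MYL9, only NDRG3 was called, with 779 and 574 in control 1 and 1265 and 1174 in control 2 (0.86, limma adjusted p 0.0400), and DLGAP4 and TGIF2 on either side of MYL9 differed by -0.11 and -0.16. Next to BASP1, MYO10, a myosin of filopodia, was at 4658 and 5436 in control 1 and at 5241 and 4177 in control 2. CCND1, the cyclin D1 gene beside MYEOV, was at 3438 and 4403 and at 2192 and 1843 (-0.95, adjusted p 0.0612, and 0.00613 with the replicate block). No gene flanking BASP1, MYEOV or CGREF1 was called in the fit without the block.

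The lists of genes with related functions are described by counts and medians, beside 2.21% called and a median of -0.00 (-0.00288) over all tested genes. Counts with the replicate block stand beside 12.9% of all tested genes called in that fit. Of the 18 called genes that the naming rule took from lists alone, 0 and 3 were called without replicate 1 or 2 of control 1, 4 and 5 without replicate 1 or 2 of control 2, and 6 without either library of the line labelled KO-1. Contractile and actin-binding genes, many of them targets of the serum response factor SRF, had 25 tested members with 1 higher (MYL9) and 1 lower, or 1 and 3 with the block, and a median of -0.05. ACTN1, which crosslinks actin filaments, fell from 11079 and 11921 to 6023 and 4380.1 (-1.16, limma adjusted p 0.0285). The large difference in MYL9 thus stood beside 23 list members that did not pass the test. Among 13 cortical and growth-cone proteins, BASP1 and DPYSL2 were higher, the latter by 0.67, and the block gave 4 higher and 3 lower.

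Interstitial matrix genes had 22 tested members, of which 0 were called higher and 3 lower (FN1, POSTN and COL5A1), 18 had a negative difference and the median was -0.37. COL5A1, a fibril-forming collagen chain, was at 18316 and 20845 in control 1 and at 10092 and 10403 in control 2 (-0.93, adjusted p 0.0143). With the replicate block, 8 were called lower and 1 higher. Basement membrane genes had 2 of 21 tested members called, LAMA4 and LAMB2 (-0.85), both lower, of which LAMB2 also lost its call with a pseudocount of 0.1, with edgeR and under 2 other filters, and 1 higher and 4 lower with the block. The other laminin chains tested were not called, among them LAMA5 at 7829 and 8481 in control 1 and at 9568 and 9847 in control 2. Of 18 integrin subunits, ITGA5, the alpha chain of the fibronectin receptor, was called without the block, which gave 2 higher and 3 lower: it was at 6978 and 8790.3 in control 1 and at 3996 and 3750.1 in control 2 (-1.02, adjusted p 0.0499). The subunit gene ITGA11 had a larger difference in the opposite direction (2.60, adjusted p 0.0840) and was not called without the block. The fibroblast and pericyte list, in which DCN and LUM were at 0 and 4 of 10 members were tested, had a summed level of 1336 and 1688 in control 1 and of 793 and 1106 in control 2, of which COL1A1 made up the largest share. COL1A1 differed by -0.82, PDGFRB by -1.65, RGS5 by -0.29 and CSPG4 by 0.30, with 0 called, or COL1A1 alone with the replicate block. The part of such cells in the fall of the matrix genes was not tested.

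Cadherins, junction proteins and regulators of the epithelial to mesenchymal transition had 23 tested members, with 2 higher and 1 lower and a median of 0.05, and 6 and 4 with the block. CLDN4, a tight junction claudin, was at 426 and 318 in control 1 and at 1299 and 708 in control 2 (1.38), and JUP, the junction plakoglobin, at 269 and 244 and at 637 and 504 (1.14). CDH11, a mesenchymal cadherin, had a mean of 154 ± 26 in control 1 and of 33.7 ± 9.98 in control 2 (SD, n = 2, difference -2.17). Of 9 tested keratins (1 called higher and 2 lower with the block), 7 had a positive difference and KRT19 was called lower, from 304 and 270.4 to 105 and 120.1 (-1.35, adjusted p 0.0103). Among renal and epithelial lineage factors, 1 of 25 was called, MECOM, at 438 and 465 in control 1 and at 175 and 215 in control 2 (-1.21). Of the 34 tested HOX genes, HOXA5 was higher (0.85), and the list median was 0.01, or -0.02 with libraries scaled to equal totals.

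Interferon-stimulated genes, which encode antiviral effectors, had 5 of 31 tested members called higher in control 2 (16.1%) and 0 lower, 24 had a positive difference and the median was 0.32. OASL, a relative of the oligoadenylate synthetases, was at 119.5 and 210.1 in control 1 and at 471 and 729.6 in control 2 (1.88, limma adjusted p 0.0295). IFIT2, which binds viral RNA, was at 93.8 and 179.9 and at 412 and 504 (1.80, adjusted p 0.0295). ISG15, a ubiquitin-like modifier, was at 165 and 204 and at 345 and 437 (1.08, adjusted p 0.0344). Over the list, 15 of 31 genes had no overlap between the control lines, beside 44% of all tested genes. OASL was at 135 to 283 in the libraries labelled KO. IFIT1 (1.29) and RSAD2 (2.56) were the other called members, and 11 were called higher with the replicate block, beside 12.9% of all tested genes. IRF1, an interferon-induced transcription factor, overlapped between the control lines.

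**Figure D3:**
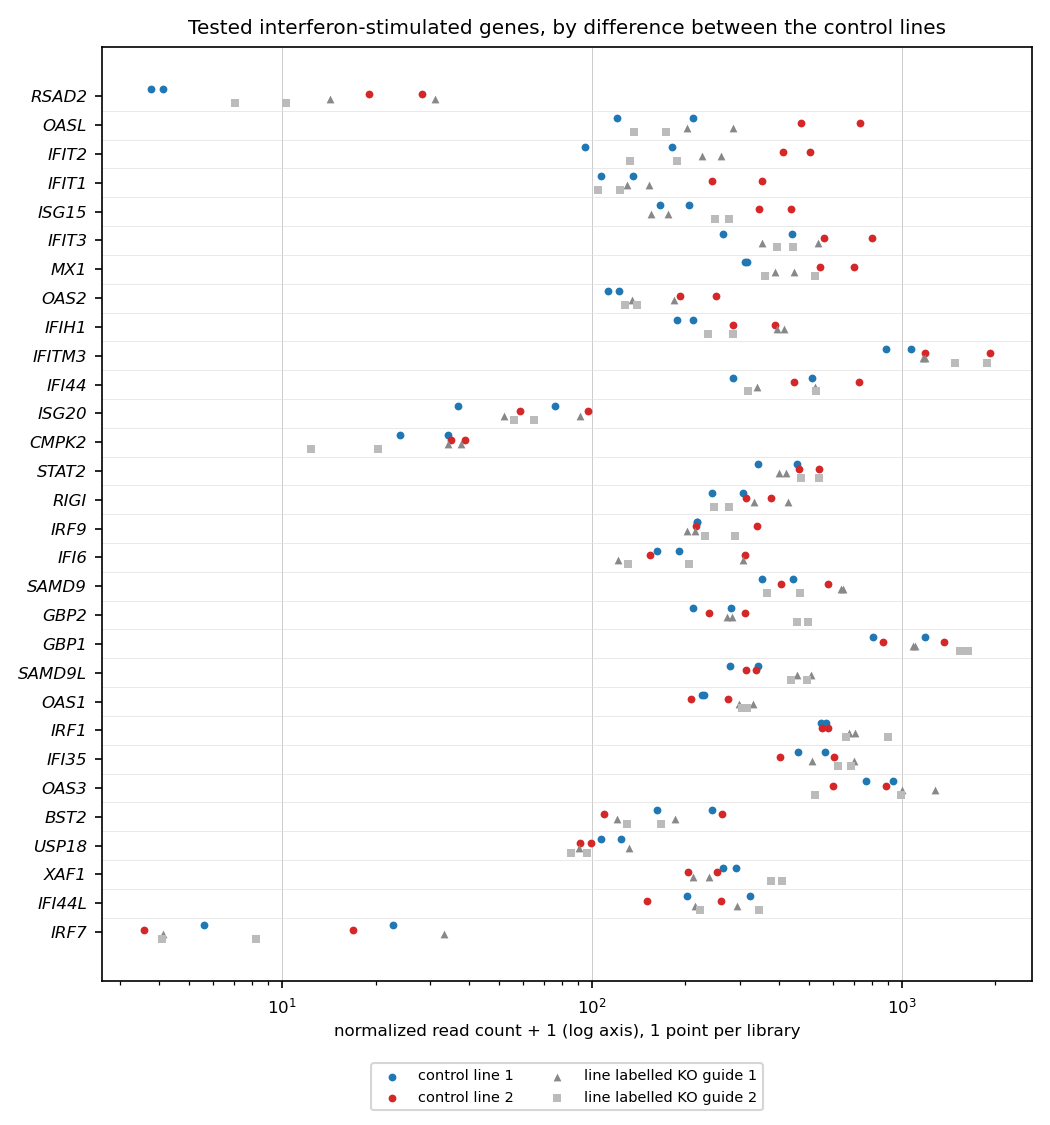
Normalized read count + 1 (log axis) of 30 of the 31 tested interferon-stimulated genes in each of the 8 libraries, 1 point per library, ordered by the difference between the control lines. Control 2 (red) lies above all other libraries for OASL, IFIT2, IFIT1 and ISG15, and the lines overlap in the lower part of the plot.

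Of 11 tested ligands and receptors of the EGF family, AREG (amphiregulin) was called higher (9.09% of the list), at 162 and 359 in control 1 and at 799 and 1627 in control 2 (2.24, adjusted p 0.0472), while HBEGF was at 305 and 615 and at 112 and 92.9 (-2.08, adjusted p 0.0803, and 0.00332 with the block). NF-kB targets and cytokines had 1 higher, BIRC3 (0.87), and 1 lower, IL1A, of 26 (7.69%), and 5 and 5 with the block. Their median of 0.02 changed sign with libraries scaled to equal totals (-0.00458). IL1A had 0 reads in both libraries of control 2 and a mean of 11.2 ± 0.288 (SD, n = 2) in control 1, at least 3.76-fold lower. Among 31 targets of the hypoxia-inducible factors, DDIT4, an inhibitor of mTORC1, was lower, at 3224 and 3165 and at 1617 and 1699 (-0.95, adjusted p 0.00819), and the block gave 1 higher and 5 lower.

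Cholesterol synthesis genes (23 tested, 19 negative, median -0.28), cell cycle genes (36, median 0.12) and p53 targets (28, median -0.02) had 0 calls without the block, and 4, 6 and 8 with it, beside 12.9% of all tested genes. DNMT3B, a DNA methyltransferase, differed by 0.49 (adjusted p 0.142, and 0.0207 with the block), and 0 of the 23 tested genes of DNA methylation and silencing were called. Clustered protocadherins (21 tested) had 0 calls, or 2 higher and 1 lower with the block, and none of the 40 cancer-testis antigens reached the level for testing. The metallothionein genes MT1X and MT2A, whose proteins bind zinc and copper, differed by -1.60 and -0.87, which passed the test only with the replicate block (adjusted p 0.00119 and 0.00663). HLA and antigen processing genes had 7 tested members of 23 and a median of -0.80 with 0 calls, or 1 higher and 3 lower with the block. The 23 genes summed to 2359 and 2812 in control 1 and to 2819 and 4454 in control 2. Most of this was B2M, the most abundant of them, at 1708 and 2029 in control 1 and 2399 and 4054 in control 2. The HLA genes lie in the major histocompatibility region, as PPP1R11 does, so that their counts are uncertain. HLA-E differed by -1.10 (adjusted p 0.780). The 13 genes encoded by mitochondrial DNA all had a positive difference (median 0.48, 0 calls). Of the genes around MYEOV (10 tested), kidney markers (13), leukocyte markers (2) and endothelial markers (1), 0 were called (1 of the kidney, 1 of the leukocyte and 1 of the MYEOV genes with the block), and no erythroid marker reached the level for testing. Mitochondrial genes took 4.67% and 6.35% of the reads in control 1 and 6.39% and 9.05% in control 2, the higher share each time in replicate 2.

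Besides the large differences in single genes, the control lines differed by small amounts over long stretches of 5 chromosomes. Of 23 chromosomes, 4 had a median beyond 0.1 in size, which was -0.43 for chromosome 3, -0.37 for chromosome 16, 0.20 for chromosome 15 and 0.17 for chromosome 8. On chromosome 3, 75 of 772 tested genes had a positive difference, 43 were called lower and 4 higher (6.09% called). Over all tested genes, 6746 of 13579 had a positive difference and 2.21% were called. The medians within replicate 1 and within replicate 2 were -0.44 and -0.43 for chromosome 3 and -0.35 and -0.37 for chromosome 16. Tested genes were then divided in gene order into 449 parts of 27 to 32 genes, and at least 3 neighbouring parts with medians of 1 sign beyond 0.25 were taken as a run. On the 18 chromosomes without a run, the part medians lay between -0.14 and 0.28.

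Runs covered nearly all of chromosomes 3 and 16 and the first genes of chromosomes 8, 12 and 15. The first 6 of 14 parts of chromosome 15 had a median of 0.55, while the rest of the chromosome was at 0.02. In these parts 176 of 186 genes were positive and 23 were called higher (12.4% called, beside 2.21% of all tested genes). The first 6 of 16 parts of chromosome 8 were at 0.53 (172 of 186 positive) and the first 4 of 24 parts of chromosome 12 at 0.54 (110 of 120), with 0.00 and 0.01 for the remaining genes. On chromosome 3 the first 20 of 26 parts were at -0.49 and the last 5 at -0.31. On chromosome 16, 19 of 21 parts formed a run at -0.38.

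**Figure D4:**
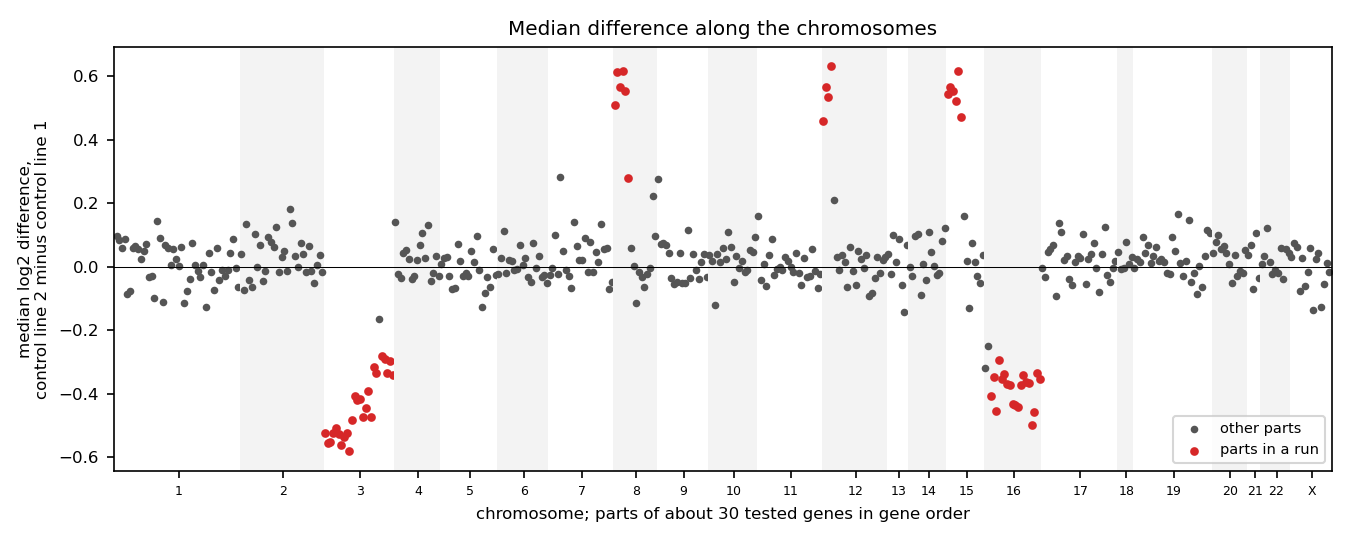
Median log2 difference (control 2 minus control 1) of parts of about 30 tested genes, in gene order along chromosomes 1 to 22 and X, 1 point per part, with parts in a run in red. The runs on chromosomes 8, 12 and 15 end within the chromosome. On chromosome 8 the last part of the run has an intermediate median (0.28), and on chromosomes 12 and 15 the part just after the run does (0.21 and 0.16). The runs on chromosomes 3 and 16 span most of their length.

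The line that stood apart differed between runs. In the runs of chromosomes 8, 12 and 15, control 1 had a median centred log2 level of -0.45, -0.42 and -0.42, against 0.06 to 0.31 in the 3 other lines. On chromosome 3, control 1 was at 0.41 in the longer run, against -0.25 to -0.06 in the 3 other lines. The value of -0.25, that of the line labelled KO-2, joins 2 levels. Its part medians were -0.22 to -0.07 in parts 1 to 12 and -0.66 to -0.50 in parts 13 to 20. In the shorter run control 1 was at 0.37, and control 2 and the line labelled KO-1 were both at 0.06. The line labelled KO-2 was farthest from the rest there, at -0.49. On chromosome 16 control 2 was low (-0.29), and the 3 other lines lay between 0.05 and 0.13.

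**Figure D5:**
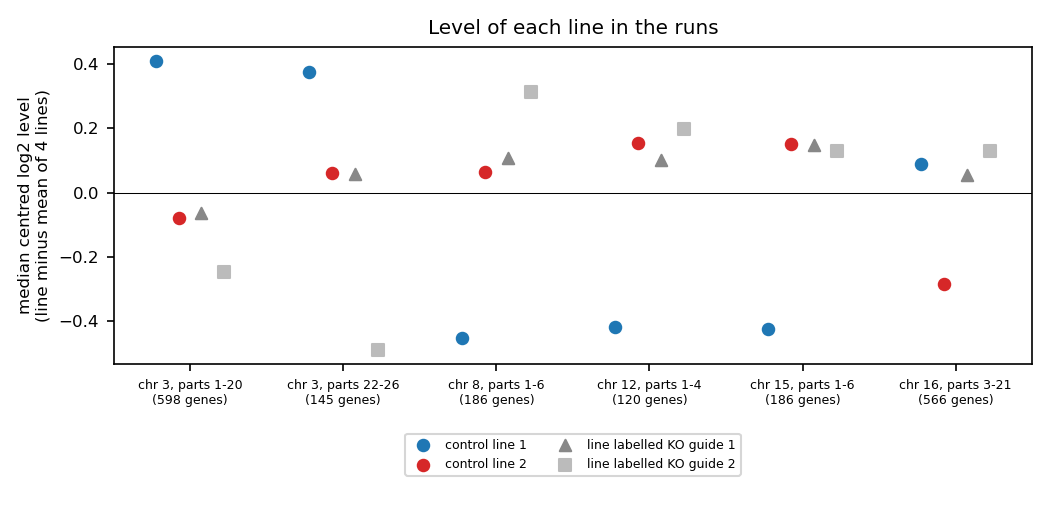
Median level of each line in the 6 runs, as log2 level minus the mean of the 4 lines, 1 point per line. Control 1 (blue) is the lowest in the runs of chromosomes 8, 12 and 15 and the highest in both runs of chromosome 3, and control 2 (red) is the lowest on chromosome 16.

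The runs held 1801 tested genes, of which 117 were called (6.50%), and 181 of the 11672 genes outside them were called (1.55%). Runs were chosen by the same difference, so that a higher share inside them follows from the choice. Called genes inside runs had a median size of 0.90 on the log2 scale and those outside 1.80, and 15 inside and 76 outside differed at least 4-fold. Of the 20 largest differences, 3 lay inside a run, WDR76, IVD and HERC2P2 on chromosome 15. Their differences of 3.33 to 4.05 were far beyond the run's median. Called genes named from lists inside runs were DPYSL2 (chromosome 8, 0.67), LAMB2 (chromosome 3, -0.85), MECOM (chromosome 3, -1.21) and CDH11 (chromosome 16, -2.17). Of those not called, CIITA (-1.73), MT1X (-1.60) and ITGAM (0.16) on chromosome 16 stand beside a run median of -0.38. Chromosomes 3 and 16 held 59 of the 153 genes called lower, and chromosomes 8, 12 and 15 held 60 of the 147 called higher. These sets held 1398 and 1623 of the 13473 tested genes on chromosomes 1 to 22 and X. In either direction, 4.65% and 4.44% of their genes were called, beside 2.21% of all. The chromosomes, too, were chosen by the same difference.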

How the data were processed

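Polyadenylated RNA of 8 libraries was sequenced. The submitters' processing notes name fastp 0.23.2, HISAT2 2.2.1, featureCounts 2.0.1 and DESeq2 2.11.40.8 with hg38 and GRCh38, and give no order. The deposited signal was a normalized read count per gene, and 100% of its values above 0 were whole multiples of 1 value per library (tolerance 0.001), so that reads were recovered. Symbols, found for 27745 of 28395 identifiers, and gene order come from RefSeq (GRCh38.p14), and 0.0332% of the reads had no symbol. Depth ranged from 15784890 to 22631588 reads, and limits from 3 reads cover counting error only.

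Log2(value + 1) was fitted with limma 3.58.1 in R 4.3.3, with 1 mean per line over all 8 libraries and eBayes with a trend, with Benjamini-Hochberg adjustment of the p-values for 13579 genes. A gene with an adjusted p under 0.05 was called. Differences are control 2 minus control 1 and understate those of low genes. The quasi-likelihood test of edgeR 4.0.16 on the recovered reads called 306 genes, and DESeq2 1.42.0 was a further alternative. The script was tested on simulated data. Alternatives covered the pseudocount, filter, scaling, tool, replicate block and each library left out.

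Named were ANXA4, MYL9, BASP1, MYEOV and CGREF1, the 10 largest rises and falls among called genes with a line mean of 50 or more in a control line and libraries that did not overlap (LOC numbers left out), up to 3 genes per list (where 2 or more were called, the called ones with the smallest adjusted p, otherwise the 2 largest differences), 3 neighbours on each side and 3 genes of like pattern. LAMA5, B2M, IRF1 and the cell type markers that it did not take are named outside this rule, after their values were seen. Several list genes that the rule took, but that were not called without the block, are not described above. Among them are KRT81 (-2.10), PCDHB15 (-1.90), PCDHA11 (1.65), HOXA13 (0.95) and GATA2 (-0.86). A result that the rule names is not reported here. The members and the 28 lists were chosen with earlier results of these data known. The parts of chromosomes were chosen after the chromosome medians had been seen.

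Replicate numbers come from the titles. The difference between replicate 2 and replicate 1 correlated across genes at 0.285 to 0.501 in all 6 pairs of lines (0.401 for the control lines), above the limit of 0.1 for paired numbers. Calls given without the block, the 300 among them, come from a fit that leaves this pairing out. The fit with the block called 1748 genes (12.9%). A chi-square test of the reads of replicates gave 19.8 and 41.9 per degree of freedom in the control lines, so they were not 1 library deposited again.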

Additional observations from a re-analysis of the deposited data

How the results depend on the processing

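The replicate block gave 1748 called genes, 792 higher and 956 lower in control 2, and with the block and the 4 control libraries alone (added after seeing the data) 1518, 686 and 832. The 4 control libraries alone gave 154 genes, 70 higher and 84 lower, and DESeq2 gave 670, 327 and 343. Scaling to equal totals gave 91 genes higher, of 225 in all. A minimum of 2-fold left 194, of which 96 were lower. Leaving out 1 library at a time gave 43 to 407 genes, 24 to 198 higher and 19 to 209 lower, and the lowest counts came without a library of control 1. The other alternatives (pseudocounts of 0.1 and 10, other filters, TMM scaling, edgeR) gave 230 to 340 genes. Of the 300 genes, 288 were shared with edgeR and 296 with DESeq2. None of the 38 named genes called changed direction in any of the alternatives run, but 16 to 38 of them were called when 1 library was left out and 28 with the 4 control libraries alone. The block changed no call of the 20 largest differences. With 2 libraries per line, small differences in genes with few reads were not detectable at this depth.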

Other observations

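The genes in this part were chosen after their values were seen. Among the next largest rises in control 2, DMKN, a secreted protein of stratified epithelia, was at 22.1 and 18.7 in control 1 and at 141 and 206 in control 2 (log2 difference 3.01, limma adjusted p 0.00872), and at 5.48 to 10.4 in the libraries labelled KO. MISP, an actin-bundling spindle protein, was at 22.1 and 20.8 and at 232 and 103 (2.80), and CAMSAP3, which anchors microtubule minus ends, at 19.3 and 14.6 and at 140.2 and 86.1 (2.64). MYH14, a heavy chain of nonmuscle myosin II and thus a binding partner of the type of light chain that MYL9 encodes, was at 149.7 and 133 in control 2, with a difference of 2.74 from control 1, and had 0 reads in both libraries labelled KO-2. CXCR4, the chemokine receptor, was at 186 and 177 and at 631 and 1551 (2.44), and GJB2, connexin 26, at 47.8 and 59.3 and at 268 and 316 (2.43). For MISP, CAMSAP3, CXCR4 and GJB2 all libraries labelled KO lay above control 1.

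Among the next largest falls, EDIL3, a secreted integrin ligand, was at 628 and 489.9 in control 1 and at 46.5 and 56.6 in control 2 (-3.41, limma adjusted p 0.000392). The cytokine receptor chains IL20RB (1098 and 912, then 129.9 and 106) and IL31RA (119 and 141, then 26.7 and 14.7) were both lower, by -3.08 and -2.65. SEMA3B, a secreted semaphorin on chromosome 3, differed by -3.17, and MCAM, a cell adhesion molecule, by -2.77. Among the most abundant called genes, MMP14, a membrane-bound matrix metalloproteinase, was at 11745 and 14072 in control 1 and at 5438 and 6743 in control 2 (-1.09, adjusted p 0.0412). G0S2, an inhibitor of triglyceride lipase, was at 6974 and 11759.5 and at 1910.0 and 2881 (-1.95), and PLIN2, a coat protein of lipid droplets, at 6365 and 6077 and at 3995 and 3645 (-0.70).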
